A study of Mus musculus with 9 samples.

Results

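The genes examined here were the chemokines, interleukins and interleukin receptors of the mouse olfactory epithelium (OE), taken as every gene whose symbol starts with Ccl, Cxcl or Il followed by a digit. These were 119 of the 23607 genes in the count tables: 24 CC chemokines, 13 CXC chemokines, 37 interleukins, 40 receptor chains, 4 soluble antagonists or binding proteins and 1 enzyme, Il4i1, that carries the name of an interleukin. RNA was measured in 9 C57BL/6 mice, 3 kept for 1 hr with distilled water (control), 3 with 1% heptanal and 3 with 100% heptanal. Each group held 1 mouse of postnatal day 22, 1 of day 21 and 1 of day 18, and by the study's methods the 3 mice of a day were littermates of the same sex, so that age, sex and litter cannot be told apart. Each mouse was exposed singly in a sealed container to liquid on filter paper. The OE was then dissected whole and ribosomes carrying phosphorylated S6 were pulled down with an antibody (pS6-IP) before their RNA was sequenced.

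Chemokines are small secreted proteins that bind G protein-coupled receptors and attract cells, while interleukins act through multi-chain receptors that signal through JAK kinases and STAT factors or, for the IL-1 and IL-17 families, through adaptor proteins that lead to NF-kB. Some are made by immune cells after a stimulus and others, such as Cxcl12 and Il33, are present in resting stroma or epithelium. Phosphorylation of the ribosomal protein S6 rises in active neurons, so the pulldown enriches RNA of olfactory sensory neurons (OSNs) that respond to an odour, but RNA of other cells is recovered as well. In such bulk samples fewer cells of a type, less RNA per cell and less pulldown from a cell cannot be told apart.

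The tables held 5438494 to 9707592 estimated counts per mouse, and the members took 0.0622% to 0.0886% of them. At 100% heptanal 4 of 15 tested activity-related genes (Egr1, Fos, Fosb and Nr4a1) and 1 of 5 mature OSN markers (Omp) were called higher than in control. Over all genes 0.322% were called higher, and none of the 5 was called at 1%. The 5 calls among pathway and marker genes became 1 without the litter in the fit. They became 1, 2 and 3 without the control mouse of day 22, 21 and 18. The 5 mature OSN markers summed to 5863, 8698 and 4231 counts per 1000000 (CPM, scaled to library size) in the control mice of days 22, 21 and 18 and to 11758, 14868 and 10541 CPM at 100%. The sum was thus higher at 100% in every litter, with a median log2 fold change of 0.78, and all comparisons at 100% below were made on libraries that differed in this way. The markers of T cells summed to at most 2.53 CPM.

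Of the 119 members, 100 had at least 1 count in at least 1 mouse, 50 had counts in all 9 mice and 19 were at 0 throughout. Over all genes 19933 of 23607 had at least 1 count, a share close to that of the members. The 19 were mostly interleukins of lymphocytes and myeloid cells: Il3, Il6, Il9, Il12b, Il17a, Il17f, Il20, Il21, Il22, Il23a, Il24, Il31, Il1f8 and Il1f10, with the receptor chains Il9r, Il13ra2, Il1rapl1 and Il1rapl2 and the chemokine Ccl26. A count of 0 allows up to 3 counts, or 0.295 to 0.520 CPM depending on the mouse, so these genes were not detectable at this depth. The interval covers counting error only, since reads were amplified and carried no molecular identifiers. Detection differed by role: 23 of 24 CC chemokines, 13 of 13 CXC chemokines and 36 of 40 receptor chains had a count somewhere, against 23 of 37 interleukins. A further 46 members had counts but were too low for the test, 8 of them with at most 3 counts over all mice, and 54 were tested. Over all genes 14930 of 23607 were tested, a larger share. The test's filter on low counts used the counts themselves, so the 54 are the better expressed members and do not stand for all 119.

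Summed over the members, the control mice of days 22, 21 and 18 held 788, 728 and 650 CPM. The 1% mice held 751, 699 and 676 CPM, and the 100% mice 814, 800 and 882 CPM. The sum was highest in the 100% mouse of each litter. Il33 alone accounted for 90.9, 182 and 312 CPM of the sums at 100%. It gave 54.6, 118 and 85.4 CPM of those in control and 21.5, 89.0 and 103 CPM of those at 1%. With Il33 left out of the sum, the 100% mouse was not the highest of its litter at day 22 or day 18.

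**Figure D1:**
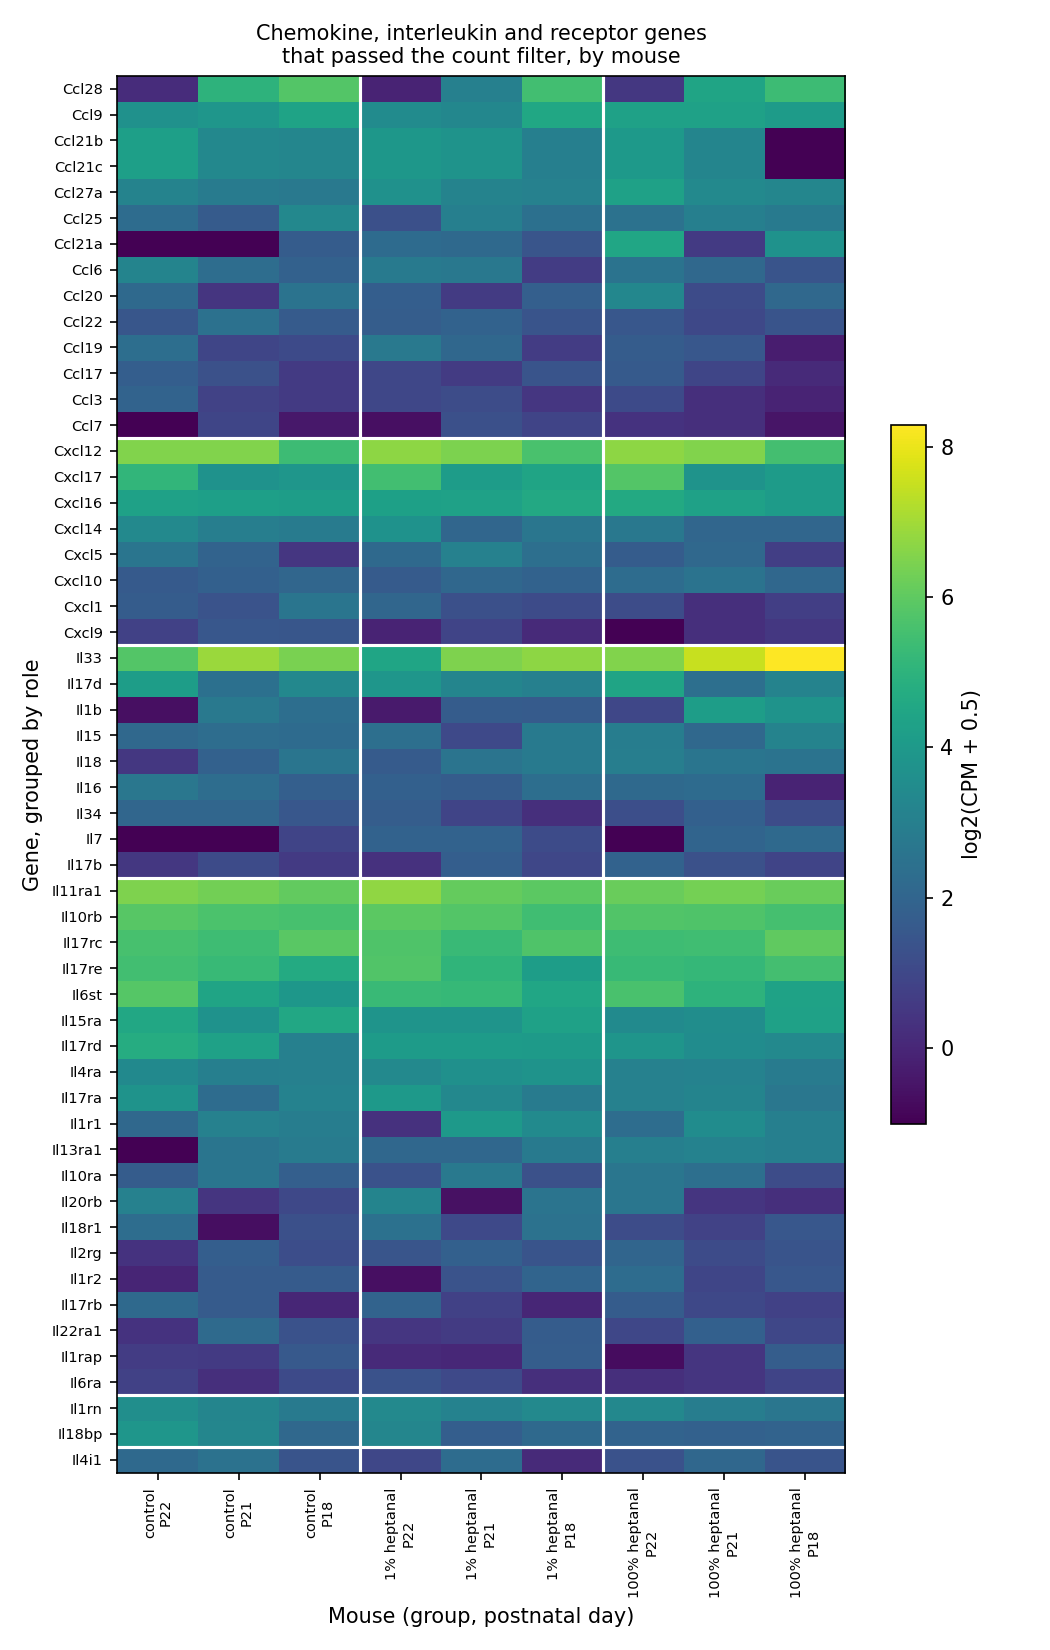
Level of the 54 tested members in each of the 9 mice, as log2(CPM + 0.5) in colour. Rows are genes grouped by role and columns are mice by group and postnatal day (P). Il33 was the brightest row and reached 312 CPM in the 100% mouse of day 18, while Ccl28 was dark in all 3 mice of day 22.

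Levels of different genes were compared per kilobase of exon, as mean CPM over the 9 mice divided by exon length, for the 118 members with a matching gene model. Over all mice Il33, a nuclear alarmin of barrier cells, had 40.7 CPM per kb, Cxcl17, a mucosal chemokine, 33.3 and Ccl21b 26.8. The value of Ccl21b depended on how shared reads were split, as described further on. It was also divided by 402 bases, the length of its coding sequence alone, against 870 exon bases for its copy Ccl21a. Its place among the highest members therefore depends on its gene model. The order of Il33, Cxcl17 and Ccl21b changed with the mice. In control they were close, at 31.0 CPM per kb for Ccl21b, 29.8 for Il33 and 26.6 for Cxcl17, whereas at 1% Cxcl17 led with 36.0 against 24.7 for Il33, and at 100% Il33 led with 67.5 against 37.4 for Cxcl17. At day 22 Cxcl17 had 58.4 CPM per kb against 19.3 for Il33. The receptor chains Il17rc (18.4), Il11ra1 (17.2) and Il10rb (13.6) came next, and Cxcl12, the ligand of Cxcr4, had 9.60 CPM per kb. RNA was primed from the poly-A tail, so the division by the whole exon length is approximate.

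No member was called at either dose. The test was edgeR's quasi-likelihood test with the litter as a block and Benjamini-Hochberg adjustment over 14930 genes. Between 1% heptanal and control 0 of 54 members had an adjusted p below 0.05, against 0% of all genes called higher and 0% called lower. Between 100% heptanal and control 0 of 54 were called, against 0.322% of all genes higher and 0% lower. Between 100% and 1% heptanal 0 of 54 were called, against 0.0804% higher and 0% lower. With backgrounds that low, the count of 0 members is not a result about the members.

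Without adjustment, edgeR gave 0 members higher and 1 lower at 1% against control at p below 0.05, where 1.32% and 1.94% of all genes lay. At 100% against control 4 members were higher and 3 lower, where 6.64% and 3.79% of all genes lay. At 100% against 1% there were 2 higher and 0 lower, with 6.74% and 3.68% of all genes. The median log2 fold change over the 54 members was -0.07 at 1% and -0.02 at 100%, against -0.01 and -0.0024 over all genes tested. As another view, 10 members were higher and 14 lower than control in all 3 litters at 100%, where 18.4% and 18.1% of all genes were. At 1% these counts were 7 and 5, with 11.5% and 11.7% of all genes, and between the doses 7 and 11, with 16.9% and 15.5%. The share of members that were lower in all 3 litters was 25.9% at 100% over control and 20.4% at 100% over 1%, above the share of all genes, while the other 4 shares over litters lay between 9.26% and 18.5%. At unadjusted p below 0.05 the members' shares at 100% over control were 7.41% higher and 5.56% lower, and over 1% they were 3.70% and 0%. Ccl21b and Ccl21c, which held identical values, are both among the 14 members lower at 100% over control, and Ccl21a is among the 10 higher. All counts of these copies came from shared reads, as described further on. No test of these gaps was made.

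**Figure D2:**
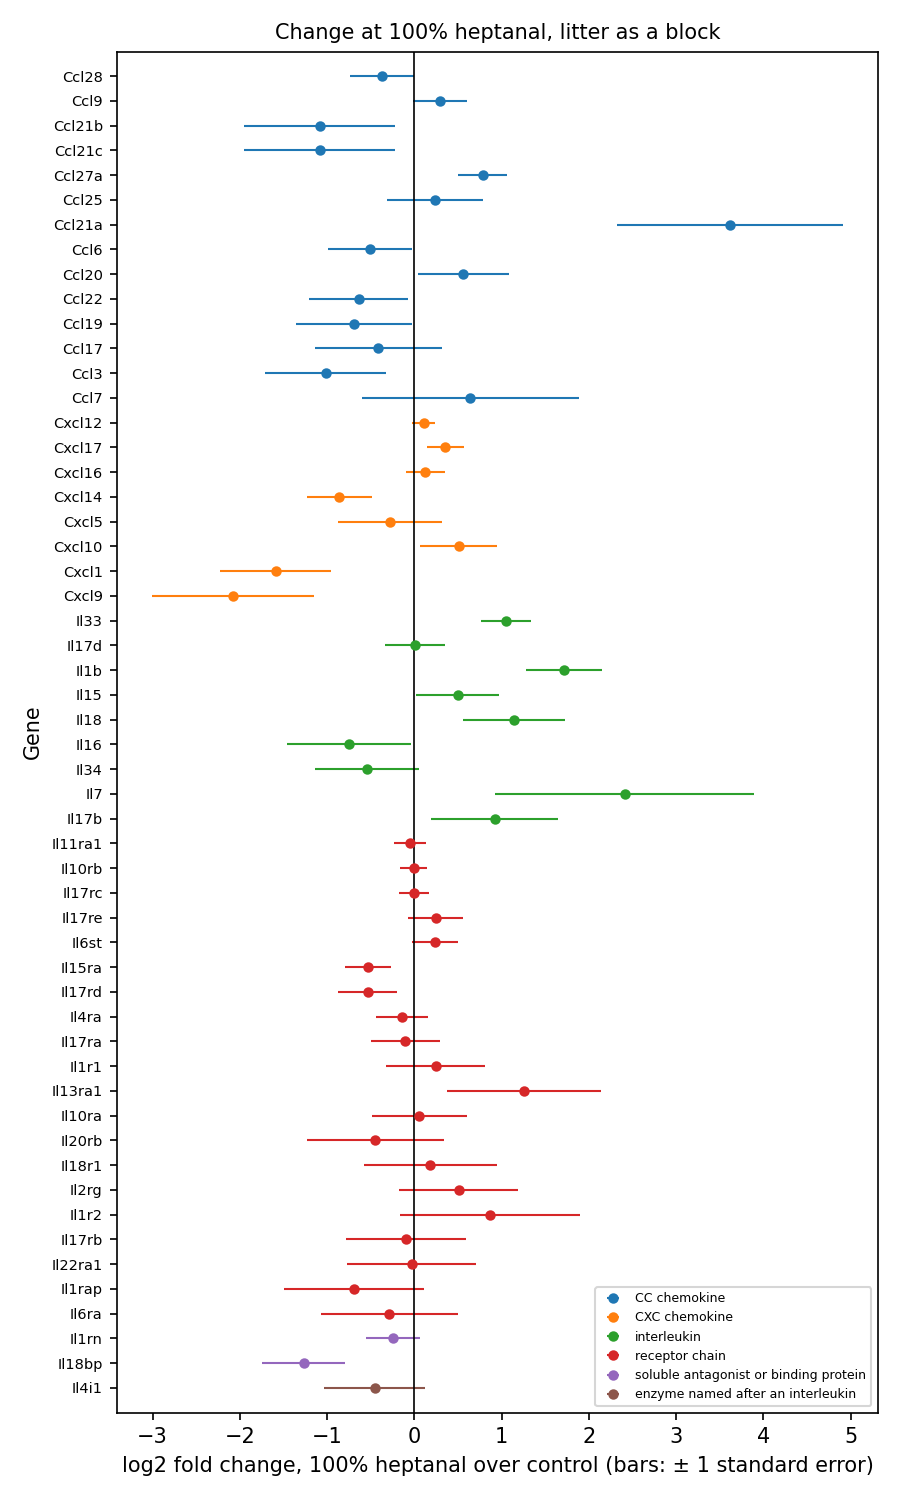
Log2 fold change of each of the 54 tested members at 100% heptanal over control, with the litter as a block. Points are estimates and bars are 1 standard error, coloured by role, and no member passed an adjusted p of 0.05. Well-measured receptor chains such as Il10rb (SE 0.15) sat at 0, while Il33 (SE 0.29) and Il1b (SE 0.43) sat to the right with longer bars.

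The interleukins held the pair of members with the lowest adjusted p at 100% heptanal, Il1b and Il33, both of the IL-1 family. Il33 lies on chromosome 19 and Il1b on chromosome 2 (mm10). Both are made as precursors, Il1b being a secreted inflammatory cytokine that caspase-1 cleaves and Il33 a protein held in the nucleus and released on damage. Their promoters are shown because this pair had the lowest p of the members at 100% heptanal over control. Both had their highest value of every litter at 100% heptanal, as did Ccl27a, Cxcl10 and Il13ra1. Each runs 5′ to 3′ on the gene's own strand, from 250 bases before to 50 after a RefSeq start site (GRCm38.p6), with the capitals marking TATAAA. The windows are chr2:129371090-129371389 on the minus strand for Il1b, and chr19:29924863-29925162 and chr19:29945540-29945839 on the plus strand for the upstream and the downstream start of Il33.
Il1b: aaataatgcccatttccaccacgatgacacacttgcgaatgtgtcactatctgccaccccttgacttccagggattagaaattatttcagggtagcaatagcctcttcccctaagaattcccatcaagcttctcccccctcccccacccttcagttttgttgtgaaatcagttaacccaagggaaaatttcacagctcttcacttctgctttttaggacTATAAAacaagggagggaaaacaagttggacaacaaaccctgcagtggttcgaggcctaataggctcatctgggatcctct
Il33 upstream start: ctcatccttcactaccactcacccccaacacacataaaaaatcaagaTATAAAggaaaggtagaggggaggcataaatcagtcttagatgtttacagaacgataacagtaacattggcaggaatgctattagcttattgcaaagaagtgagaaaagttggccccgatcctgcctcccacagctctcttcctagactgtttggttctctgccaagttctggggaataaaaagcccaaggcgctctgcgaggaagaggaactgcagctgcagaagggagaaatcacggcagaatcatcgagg
Il33 downstream start: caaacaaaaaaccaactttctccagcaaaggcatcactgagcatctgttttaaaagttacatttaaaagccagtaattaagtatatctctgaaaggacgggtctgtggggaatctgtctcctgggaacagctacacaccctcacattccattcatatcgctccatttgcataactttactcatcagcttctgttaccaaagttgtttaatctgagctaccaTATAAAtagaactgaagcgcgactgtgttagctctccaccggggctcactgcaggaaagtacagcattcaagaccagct
TATAAA began at -31 from the start in Il1b, at -203 in the upstream window of Il33 and at -29 in the downstream one, and 13.6% of 32851 promoter windows of the same length hold it on either strand. None of the 3 windows held TGANTCA (in 7.81% of promoters), TGACGTCA (1.79%) or the outer letters of the NF-kB motif, GGG and CC with 5 free bases between them (50.8%), on either strand. The first is the AP-1 motif and the second the CRE. Counts per gene do not show which Il33 start was used.

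Il33 was the most abundant interleukin and the member with the largest count. In the control mice of days 22, 21 and 18 it had 54.6, 118 and 85.4 CPM. In the 1% mice it had 21.5, 89.0 and 103 CPM and in the 100% mice 90.9, 182 and 312 CPM. The 100% mouse was the highest of its litter on each day, by 1.66, 1.54 and 3.65 times over control and by 4.23, 2.04 and 3.03 times over 1%, while the groups overlapped across litters. Means were 86.1 ± 31.8 CPM (SD, n = 3) in control, 71.2 ± 43.6 at 1% and 195 ± 111 at 100%. The log2 fold change was 1.05 (SE 0.29) over control, with an edgeR adjusted p of 0.237, and 1.54 (SE 0.29) over 1%, with an adjusted p of 0.167. Neither passed the threshold in the quasi-likelihood test. With DESeq2 and the same block, Il33 passed at 100% over control (adjusted p = 0.0198), as it did with edgeR's likelihood ratio test (adjusted p = 0.0423). Those tests called 230 and 250 of all genes higher in that comparison, against 48 in the quasi-likelihood test.

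Il1b rested on few reads. Its counts were 1, 44 and 37 in control, 2, 16 and 27 at 1% and 13, 126 and 115 at 100% for days 22, 21 and 18. In CPM these were 0.155, 6.19 and 4.67, then 0.295, 2.78 and 2.65, then 1.48, 17.6 and 13.1. The 100% mouse was again highest in each litter, by 9.59, 2.85 and 2.80 times over control and by 5.04, 6.36 and 4.93 times over 1%. The first of these ratios rests on a single control count. The log2 fold change was 1.72 (SE 0.43) over control, with an edgeR adjusted p of 0.184, and 2.48 (SE 0.46) over 1%, with an adjusted p of 0.165. The likelihood ratio test in edgeR gave an adjusted p of 0.0217 over control, and DESeq2 did not call Il1b in that comparison. Leaving out 1 mouse at a time kept the edgeR log2 fold change over control between 1.48 and 1.94 for Il1b and between 0.70 and 1.36 for Il33, with adjusted p between 0.173 and 0.543 and between 0.109 and 0.531.

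**Figure D3:**
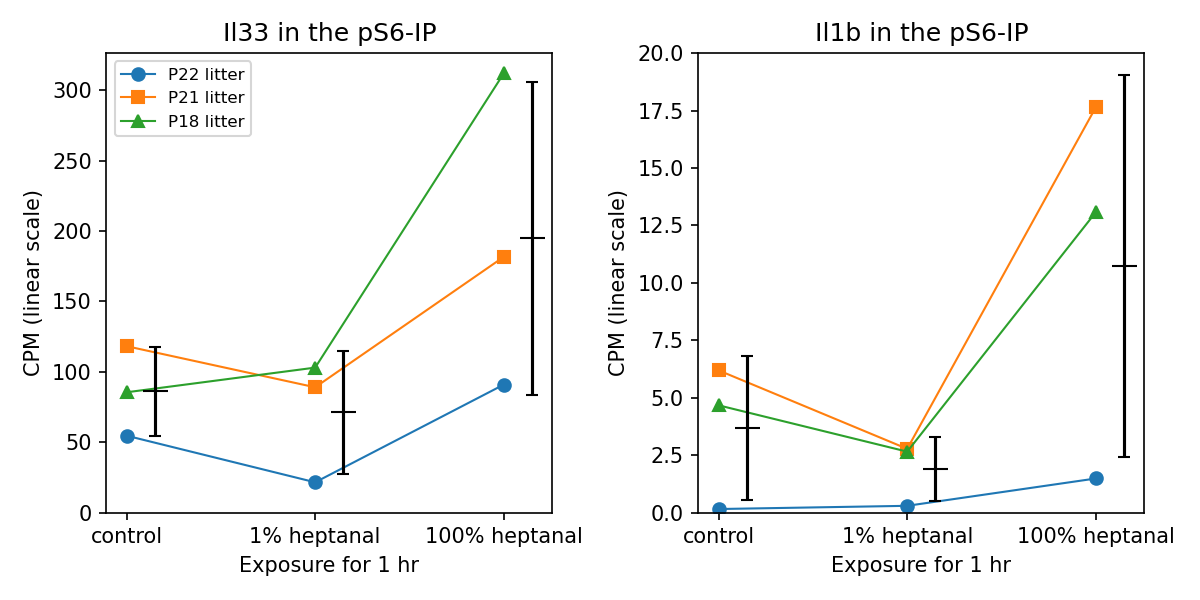
Il33 (left) and Il1b (right) in CPM on a linear scale by exposure, with a line and marker for each litter and, in black, the group mean with its SD (n = 3). In both panels each litter's 100% mouse was its highest, from 90.9 to 312 CPM for Il33 and from 1.48 to 17.6 CPM for Il1b.

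Markers of supporting cells were higher in the same mice as Il33. The 5 sustentacular markers (Cyp2g1, Cyp1a2, Ermn, Sult1c1 and Ugt2a1) summed to 1616, 2836 and 2736 CPM in control, 1627, 2546 and 2848 CPM at 1% and 2566, 3803 and 4833 CPM at 100%. Their median log2 fold change at 100% over control was 0.98, with 0 of 5 called, where 0.322% of all genes were called higher. Ermn, for example, had 0.928, 33.2 and 44.0 CPM in control and 7.76, 48.4 and 115 CPM at 100%. The part of this shift in the values of Il33 was not tested.

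The macrophage and neutrophil marker sums were lower at 100% than in control in every litter, while Ptprc was mixed in direction. For days 22, 21 and 18 the macrophage markers summed to 293, 335 and 199 CPM in control and 290, 285 and 129 CPM at 100%. Of 9 tested 0 were called, where 0% of all genes were called lower, with a median log2 fold change of -0.18. Neutrophil markers summed to 2059, 971 and 754 CPM in control and 1430, 767 and 524 CPM at 100%. Of these sums Ltf, which glands also make, gave 734 to 2046 and 513 to 1419 CPM. S100a9, a defining neutrophil gene, stayed between 0.173 and 14.7 CPM over all mice. Ptprc, which marks all leukocytes, had 2.32, 7.18 and 1.64 CPM in control, 0.295, 5.38 and 2.85 CPM at 1% and 4.22, 6.72 and 2.96 CPM at 100% for days 22, 21 and 18. It was above the 1% mouse in all 3 litters and above control at days 22 and 18, with a log2 fold change of 0.55 (SE 0.68) over control and 0.96 (SE 0.71) over 1%. The part of leukocyte RNA in the values of Il1b was not tested.

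Other interleukins were measured at low levels. Il18, an epithelial cytokine of the same family, had 0.928, 3.24 and 5.68 CPM in control and 7.31, 5.60 and 5.34 CPM at 100% for days 22, 21 and 18. Its log2 fold change was 1.14 (SE 0.59, adjusted p = 0.542), and at day 18 the 100% mouse was below its control. Il7, a lymphocyte growth factor, was at 0 in the controls of days 22 and 21 and had 3.24, 3.30 and 1.67 CPM at 1%, with a log2 fold change of 3.37 (SE 1.60) and an adjusted p of 1.00. The value was 1.98 without the 1% mouse of day 22 and 7.54 without the control mouse of day 18, the latter with no control count left, so that it depends on the fit's prior count. Il1a had 59 counts over all mice and Il25, a cytokine of tuft cells, 24 counts, and neither entered the test. Il6 had none.

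Receptors for these ligands varied in abundance. Il1r1, the signalling receptor of IL-1, had 3.87, 8.02 and 7.19 CPM in control and 4.45, 10.9 and 7.50 CPM at 100%, with a log2 fold change of 0.24 (SE 0.57). Il1rl1, the receptor of Il33, had 39 counts in all, 20 of them in the day 21 control mouse, and was not tested. The soluble antagonist Il1rn had 11.4, 8.86 and 6.44 CPM in control and 9.70, 7.14 and 5.69 CPM at 100%. It was lower at 100% in each litter, and its log2 fold change was -0.25 (SE 0.31).

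Il18bp, the soluble binding protein of Il18, was also lower in all 3 litters. It had 14.4, 9.0 and 3.91 CPM in control, 9.13, 2.95 and 4.03 CPM at 1% and 3.42, 3.22 and 3.41 CPM at 100%. The 100% mice differed little from each other and all lay below every control mouse. The log2 fold change was -1.27 (SE 0.48), with an edgeR adjusted p of 0.397, and lay between -0.88 and -1.67 with 1 mouse left out.

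The abundant receptor chains had similar means in the 3 groups. Il10rb, shared by the receptors for IL-10 and IL-22, averaged 51.6 ± 5.69 CPM (SD, n = 3) in control, 52.6 ± 9.12 at 1% and 51.1 ± 3.86 at 100%. Il17rc, a chain of the IL-17 receptor, averaged 49.7 ± 8.50, 48.0 ± 8.09 and 49.9 ± 12.7 CPM. Il6st, the gp130 chain of the IL-6 family, averaged 30.9 ± 23.0, 32.2 ± 8.92 and 33.6 ± 14.6 CPM, with the spread lying between litters. Il17re, a chain of the IL-17C receptor, had 44.2, 37.4 and 24.9 CPM in control and 38.2, 35.6 and 45.3 CPM at 100%. Its log2 fold change was 0.24 (SE 0.31). Il11ra1, the IL-11 receptor, had a log2 fold change of -0.05 (SE 0.18). Over the 20 tested chains the median log2 fold change was 0.02 at 1% and -0.02 at 100%, the range at 100% ran from -0.69 to 1.25, and the lowest adjusted p was 0.535. The largest value, Il13ra1 at 1.25 (SE 0.88), followed from a count of 0 in the day 22 control mouse against 7.53 CPM in its 100% littermate. Il17rb had 1.98 CPM on average and Il6ra 1.20 CPM, with adjusted p of 0.981 and 0.944 at 100%.

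CXC chemokines did not move as a group. Cxcl12 had 92.2, 90.9 and 41.1 CPM in control, 105, 88.1 and 48.5 CPM at 1% and 103, 92.3 and 45.1 CPM at 100%, so that the day 18 mice stood apart while days 22 and 21 overlapped. Cxcl17 had 33.7, 12.8 and 14.1 CPM in control, 43.9, 17.0 and 21.2 CPM at 1% and 55.6, 13.3 and 16.5 CPM at 100%. It was above control in each litter at both doses, by a log2 fold change of 0.46 (SE 0.22, adjusted p = 1.00) at 1% and 0.36 (SE 0.22, adjusted p = 0.62) at 100%. Cxcl16, which exists in a membrane-bound form, averaged 18.4 ± 0.756 CPM in control and 20.2 ± 3.91 CPM at 100%. Cxcl10, an interferon-induced chemokine, was higher at 100% in each litter, at 4.34, 5.32 and 3.75 CPM against 2.63, 3.10 and 3.66 CPM in control, with a log2 fold change of 0.51 (SE 0.44).

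Some CXC chemokines had lower values at 100%, as did several marker sums in every litter. The Bowman gland sum was 1209, 771 and 712 CPM in control and 840, 635 and 568 CPM at 100%. The fibroblast sum was 8984, 8041 and 2288 CPM in control and 5104, 5848 and 2102 CPM at 100%, and the erythroid sum was lower in every litter too. The macrophage and neutrophil sums given above were lower in every litter as well. The macrophage sum hardly differed at day 22 (293 CPM in control and 290 CPM at 100%), and the neutrophil sum was mostly Ltf, which glands also make. No gene of these lists was called, where 0% of all genes were called lower, and their part in the lower chemokine values was not tested. Cxcl1, a neutrophil attractant, had 2.78, 2.11 and 5.68 CPM in control and 1.71, 0.700 and 1.14 CPM at 100%, a log2 fold change of -1.59 (SE 0.64, adjusted p = 0.436) that was -0.98 without the control mouse of day 18. Cxcl14 had 9.74, 7.32 and 6.69 CPM in control and 6.16, 3.64 and 3.64 CPM at 100%, a log2 fold change of -0.86 (SE 0.37, adjusted p = 0.474). For both genes the 100% mice all lay below the control mice. Cxcl9, an interferon-gamma target, had 1.24, 2.39 and 2.27 CPM in control and 0, 0.700 and 0.910 CPM at 100%, with a log2 fold change of -2.08 (SE 0.93). Cxcl5 differed most between the doses among CXC chemokines, by -1.29 (SE 0.59, adjusted p = 0.501) at 100% over 1%, or by -0.70 without the 1% mouse of day 18. Cxcl2 had 25 counts in all.

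Among CC chemokines, the inflammatory Ccl2, Ccl3 and Ccl4 stayed low. Ccl2 had 27 counts and Ccl4 36 counts over the 9 mice, and Ccl3 had 3.40, 1.27 and 1.01 CPM in control and 1.60, 0.700 and 0.455 CPM at 100%, with a log2 fold change of -1.02 (SE 0.69). Ccl28, a mucosal epithelial chemokine, had the lowest unadjusted p of the members at 1%. It had 0.619, 31.4 and 55.2 CPM in control and 0.442, 7.81 and 44.2 CPM at 1%, a log2 fold change of -0.98 (SE 0.38, adjusted p = 1.00). The value was -0.41 without the 1% mouse of day 21 and -1.75 without that of day 18.

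Ccl21a had the largest log2 fold change of all members at 100%, 3.61 (SE 1.30, adjusted p = 0.382), and rested on shared reads. Without the control mouse of day 22 the value was 2.60, and without that of day 18, which held the only control counts, 9.31, a value that depends on the fit's prior count. Ccl21a and its copies Ccl21b and Ccl21c encode CCL21, a ligand of Ccr7 on dendritic cells and T cells. Over their 402 coding bases Ccl21a and Ccl21b differ at 2 positions, T84A and C194T counted from the A of the start codon with the Ccl21a base first, and are 99.5% identical. Coding bases 70 to 99 are shown around the first of them, on the genes' own strands (GRCm38), with the differing base in capitals.
Ccl21a: agtgatggagggggTcaggactgctgcctt
Ccl21b: agtgatggagggggAcaggactgctgcctt
In the column read as unique counts none of the 3 copies had a read in any mouse, so 100% of their counts came from the authors' division of multi-mapped reads, and Ccl21b and Ccl21c received identical values. Ccl21a had 0, 0 and 2.78 CPM in control, 4.27, 3.99 and 2.26 CPM at 1% and 22.3, 0.980 and 12.8 CPM at 100%, whereas Ccl21b had 18.4, 9.71 and 9.21 CPM in control and 15.6, 8.82 and 0 CPM at 100%. The sum of the 3 copies was 36.8, 19.5 and 21.3 CPM in control, 33.6, 30.01 and 17.2 CPM at 1% and 53.5, 18.8 and 12.8 CPM at 100%. The sum was higher than control at 100% only in the day 22 litter.

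**Figure D4:**
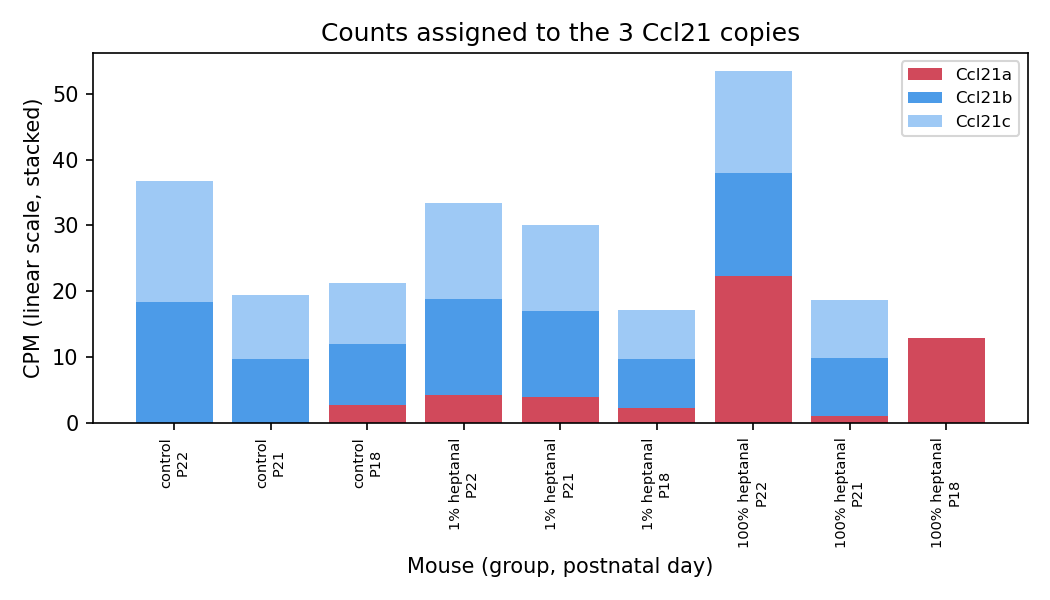
CPM assigned to Ccl21a, Ccl21b and Ccl21c in each mouse, stacked on a linear scale from 0. In the 100% mouse of day 18 all 12.8 CPM were assigned to Ccl21a, and in the control mice of days 22 and 21 none were.

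Ccl27a and Il11ra1 carry the same uncertainty. Ccl27a, a skin and mucosal chemokine, was higher at 100% in each litter, at 19.3, 9.80 and 9.21 CPM against 8.35, 6.75 and 6.18 CPM, a log2 fold change of 0.78 (SE 0.28, adjusted p = 0.385). Of the counts of Ccl27a and Ccl27b together 85.9% were reassigned reads, and of Il11ra1 and Il11ra2 97.4%. The ends of Ccl27a and Il11ra1 also overlap by a few bases on opposite strands at chromosome 4 (mm10), and the libraries did not keep the strand. There Il11ra1 ends at base 41769474 and Ccl27a spans 41769467 to 41774247. The overlap is a small part of their exons, of 2377 bases for Ccl27a and 4471 for Il11ra1.

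Genes that act with the members were read from fixed lists. Of 27 tested genes of cytokine signalling (JAK, STAT, SOCS, IRAK and related genes) 0 were called at 100%, with a median log2 fold change of -0.04 and a lowest adjusted p of 0.273. Of 20 tested NF-kB and inflammatory early targets 0 were called, with a median of -0.06. Nfkbia, the NF-kB inhibitor that NF-kB itself induces, had 41.8, 27.4 and 35.6 CPM in control and 51.8, 19.7 and 12.3 CPM at 100%. Of 19 chemokine receptors found in the tables by symbol only Ccr1, Ccr7 and Ccrl2 were high enough to test, and 0 were called. Of 8 tested chemokines and cytokines with other names, such as Cx3cl1, Pf4 and Csf1, 0 were called. The same lists had 0 called at 1%. Of all genes 0.322% were called higher and 0% lower at 100%, and 0% at 1%. With shares that low, the counts of 0 are not a result about these lists.

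More members were called between litters than between exposures, which held for all genes as well. The comparison of the 3 litters was added after the data were seen. In it edgeR called 9 of 54 members (16.7%), a smaller share than the 27.1% of all genes. The 9 were Ccl20, Ccl28, Cxcl12, Cxcl17, Il17d, Il1b, Il20rb, Il33 and Il6st. Litter, age and sex cannot be told apart here, and the labels of the day 22 libraries also carry a different prefix. The count was 5 without the control mouse of day 22 or without that of day 18.

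Ccl28 differed most. Its mean was 0.658 ± 0.238 CPM (SD, n = 3) at day 22, 20.1 ± 11.8 CPM at day 21 and 46.8 ± 7.36 CPM at day 18, with an adjusted p of 0.00061, and the 3 litters did not overlap. Cxcl12 ran the other way, at 100 ± 7.0, 90.4 ± 2.11 and 44.9 ± 3.70 CPM (adjusted p = 0.0019). Il6st fell in the same order, at 48.2 ± 9.50, 29.7 ± 8.01 and 18.9 ± 3.81 CPM (adjusted p = 0.015). Cxcl17 was high at day 22 only, at 44.4 ± 10.9 CPM against 14.4 ± 2.29 and 17.3 ± 3.61 CPM (adjusted p = 0.0024). Il17d and Il20rb, a ligand and a receptor chain, were likewise highest at day 22, at 17.7 and 7.47 CPM, and lowest at day 21, at 6.18 and 0.619 CPM. Ccl20, the ligand of Ccr6, was lowest at day 21 too, at 1.19 CPM. Il1b and Il33 were both lowest at day 22, at 0.644 and 55.7 CPM over the 3 mice of that day.

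Marker sums also differed between litters in the same mice. The sustentacular sum was 1616 to 2566 CPM at day 22 and 2736 to 4833 CPM at day 18, and the Bowman gland sum was 840 to 1284 CPM at day 22 and 568 to 712 CPM at day 18. The stromal, vessel and blood marker sums differed more. Fibroblast markers summed to 5104 to 8984 CPM at day 22 and 2102 to 3115 CPM at day 18, endothelial markers to 53.2 to 66.4 and 18.3 to 23.2 CPM, and erythroid markers to 9933 to 16634 and 1445 to 2365 CPM, in the same direction as Cxcl12 and Il6st. The part of these cells in the litter differences of Ccl28, Cxcl12, Cxcl17, Il6st and Il33 was not tested.

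**Figure D5:**
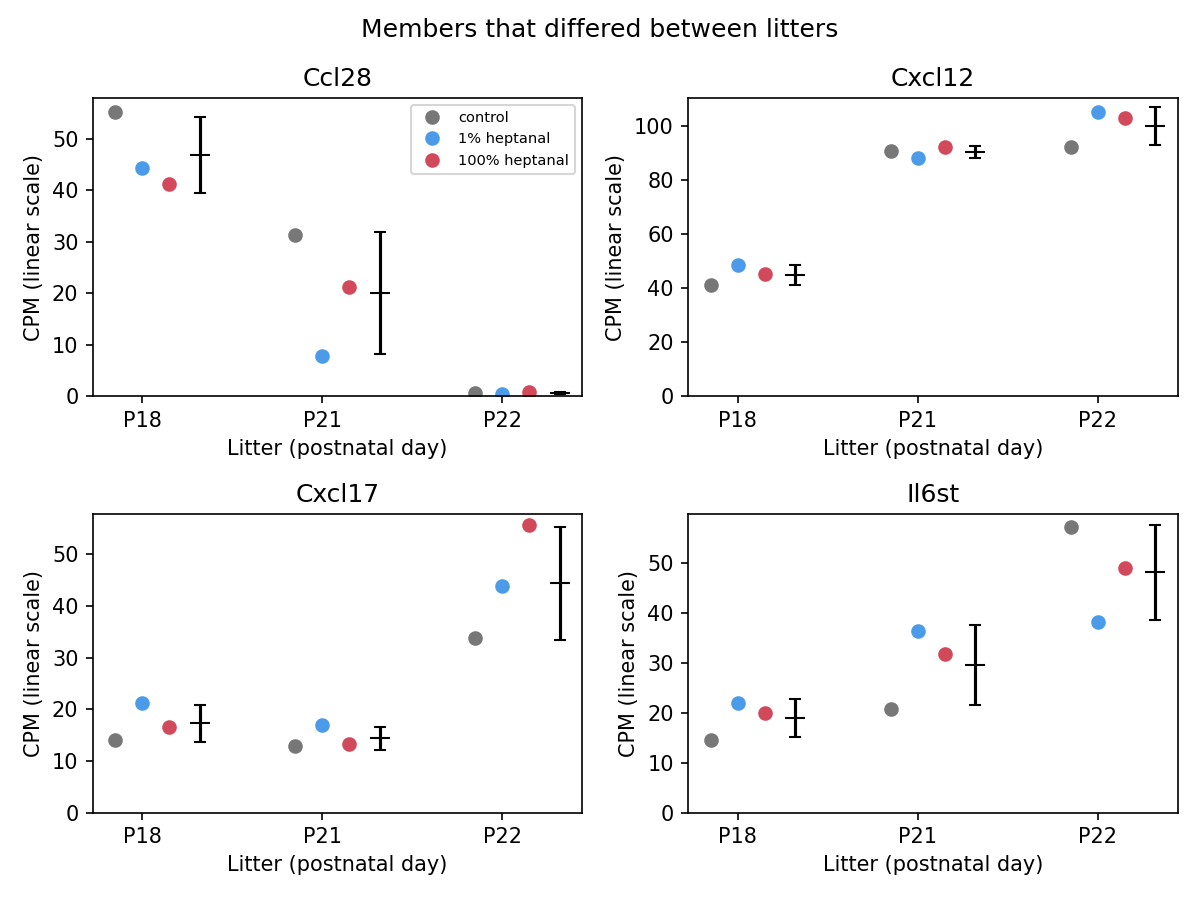
Ccl28, Cxcl12, Cxcl17 and Il6st in CPM on a linear scale by litter, with points coloured by exposure and, in black, the litter mean with its SD (n = 3 mice of different exposures). Ccl28 ran from 0.658 CPM at day 22 to 46.8 CPM at day 18, and Cxcl12 from 100 to 44.9 CPM.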

How the data were processed

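Estimated counts per gene were deposited for each of 9 pS6-IP libraries; per the labels and the study's methods the authors aligned reads with Bowtie to mm10, counted them with BEDTools and divided multi-mapped reads among genes, and the tables also hold intermediate columns. The tables have no header: column 2 was taken as counts of uniquely mapped reads and column 21 as the final estimate, from the methods and the values. Tool versions are not given in the sources used here. The estimated counts were rounded and tested with edgeR 4.0.16 (R 4.3.3): TMM scaling, filterByExpr by group, the quasi-likelihood test with group and litter as terms, Benjamini-Hochberg adjustment over 14930 genes and a threshold of 0.05. CPM are counts per 1000000 of the TMM-scaled total. The labels give matching postnatal days and the methods littermates, and deviations of same-litter mice correlated (9 pairs, r from 0.155 to 0.730), so the litter was kept as a block. Exon lengths came from GENCODE and promoters from RefSeq. Alternatives were DESeq2 1.42.0, edgeR's likelihood ratio test, no block, unique counts, other scalings and filters, adjustment without odorant receptors, and leaving out each mouse.

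The members and lists were chosen with earlier results of these data known. Genes were named if called, among the 8 highest in CPM, among the 3 lowest p in a contrast, or on a fixed list of inflammatory and epithelial members; Cxcl9, Il1rn, Il1rl1 and the other members named beyond it were chosen after their values were seen. The fit was tested on simulated data. No pair of same-group libraries agreed within counting noise, so none was treated as a duplicate. The main test had 3 mice per group, and its p-values measure the spread left between mice after group and litter were fitted. In the comparison between litters, each litter held 3 mice of different exposures.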

Additional observations from a re-analysis of the deposited data

How the results depend on the processing

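The counts of called members stayed at 0 in all 3 heptanal comparisons with no replicate block, unique counts, DESeq2 size factors in edgeR, library totals, either other filter, adjustment over genes other than odorant receptors and each mouse left out (0 to 0 members). They moved under 3 settings. With DESeq2 and the block 1 member (Il33) was called at 100% over control and 2 (Il1b, Il33) at 100% over 1%, with edgeR's likelihood ratio test 2 and 2 (the same pair), and with scaling by 5 OSN markers 8 and 14. Of all 14930 genes the main test called 48 higher and 0 lower over control, then 12 and 0 over 1%. DESeq2 called 230 and 36, then 183 and 27, and the likelihood ratio test 250 and 48, then 190 and 36. The OSN scaling called 57 and 2613, then 104 and 4572, larger shares than those of the members. That scaling moved the median of all genes by -0.81 and -0.84, and its calls contain the shift: 7 of the 8 members and 13 of the 14 were called lower, among them Il10rb and Cxcl12, whose log2 fold changes at 100% over 1% were -0.03 and -0.02 otherwise. Ccl21a and Il1b were the members called higher. Between litters the 9 called members became 19 with the OSN scaling, 14 with the likelihood ratio test and 5 to 9 with 1 mouse left out. The 5 pathway and marker genes called at 100% became 46 with the OSN scaling, 15 with DESeq2, 14 with the likelihood ratio test, 1 with no replicate block and 1 to 6 with 1 mouse left out, where the control mice of days 22, 21 and 18 gave 1, 2 and 3. At 1% the likelihood ratio test called 1 such gene, against 0, and leaving out mice gave 0 to 0. With unique counts the median summed CPM of the members was 847 in place of 751, since the totals shrink more than the members' counts do. A set of log2 fold changes of named members, most of them chosen for a low unadjusted p, was refitted under the 19 settings. Taken relative to that shift for the OSN scaling, 270 refits kept their direction and side of the threshold and 0 reversed. Changes chosen in this way would seldom reverse, and 9 of the settings only left out 1 mouse, so the 0 does not test the directions. A call was gained 3 times with DESeq2, 4 times with the likelihood ratio test and 6 times with the OSN scaling, whose p-values contain the shift. The cause of the other changes was not tested. Depth limits the members with under about 10 counts per mouse, Il1b at day 22 included.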
